A study of Mus musculus with 12 samples.

Results

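Genes of the oxidative and metal stress responses were examined in RNA-Seq libraries of primary mouse hepatocytes. Of 55450 genes in the deposited tables, 10 were taken by symbol: Nqo1, Hmox1, Gclc, Gclm, Txnrd1, Srxn1, Slc7a11, Sod2, Mt1 and Mt2. The 12 libraries fell into 4 groups of 3. KO hepatocytes carried the Cebpa{delta}Alb genotype, in which Cre recombinase, driven by the albumin promoter and so confined to albumin-expressing cells, removes the floxed Cebpa gene, and WT hepatocytes carried the floxed alleles alone (Cebpafl/fl). OE hepatocytes received an adenovirus that expresses mouse Cebpa (Ad-m-Cebpa), and GFP hepatocytes received one that expresses green fluorescent protein (Ad-GFP). The study describes the infected cells of its other assays as WT hepatocytes. The labels give neither the mouse of origin nor the time in culture for any library, nor the dose or duration of virus exposure. They number biological replicates without saying whether these came from separate mice or cultures, so the p values measure only the spread between these libraries, which may be technical.

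NRF2, encoded by Nfe2l2, is a transcription factor that is held low by KEAP1, an adaptor that presents it to a CUL3 ubiquitin ligase. Oxidants and electrophiles modify KEAP1, and NRF2 then accumulates, pairs with a small MAF protein and binds antioxidant response elements in genes of quinone detoxification, glutathione synthesis and the thioredoxin cycle. Metallothioneins are small cysteine-rich proteins that bind zinc, copper and cadmium. Their genes answer to the metal-sensing factor MTF1 through metal response elements, and in the liver also to glucocorticoids and to cytokines of the acute phase response.

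The starts of 8 of the 10 genes were found in RefSeq (GRCm38.p6), each with 250 bases before and 50 bases from the annotated start. Hmox1 and Gclc were not among them. Both strands were searched for the antioxidant response element core TGACNNNGC, which 12.4% of 32851 promoters of this length hold, for the metal response element core TGCACNC or TGCGCNC, which 25.7% hold, and for the C/EBP site TTGCNNAA, which 10.8% hold. The windows of both metallothionein genes, of Srxn1 and of Slc7a11 are shown, because the metallothioneins and Srxn1 fell and Slc7a11 rose in the OE comparison described below, and their windows differ in the matches they hold. Capitals mark the matches on either strand.
Mt2, chr8:94172368-94172667, plus strand: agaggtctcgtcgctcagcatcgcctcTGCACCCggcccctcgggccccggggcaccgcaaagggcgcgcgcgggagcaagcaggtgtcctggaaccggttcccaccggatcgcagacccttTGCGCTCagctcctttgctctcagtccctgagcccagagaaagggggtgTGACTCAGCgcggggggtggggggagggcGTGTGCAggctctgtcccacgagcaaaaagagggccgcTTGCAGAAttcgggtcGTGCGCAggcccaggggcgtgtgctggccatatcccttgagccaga
Mt1, chr8:94178839-94179138, plus strand: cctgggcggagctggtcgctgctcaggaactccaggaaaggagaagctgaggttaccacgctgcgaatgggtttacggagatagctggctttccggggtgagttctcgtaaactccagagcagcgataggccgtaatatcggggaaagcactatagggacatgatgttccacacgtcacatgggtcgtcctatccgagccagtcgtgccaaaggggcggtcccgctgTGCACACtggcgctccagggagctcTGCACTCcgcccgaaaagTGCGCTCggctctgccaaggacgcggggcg
Srxn1, chr2:152105274-152105573, plus strand: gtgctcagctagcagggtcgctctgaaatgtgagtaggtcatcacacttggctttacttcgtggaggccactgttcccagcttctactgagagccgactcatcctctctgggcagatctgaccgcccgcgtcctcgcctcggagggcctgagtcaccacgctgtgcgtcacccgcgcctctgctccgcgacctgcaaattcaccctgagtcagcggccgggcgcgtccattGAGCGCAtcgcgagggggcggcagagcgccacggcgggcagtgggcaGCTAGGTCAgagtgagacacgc
Slc7a11, chr3:50443564-50443863, minus strand: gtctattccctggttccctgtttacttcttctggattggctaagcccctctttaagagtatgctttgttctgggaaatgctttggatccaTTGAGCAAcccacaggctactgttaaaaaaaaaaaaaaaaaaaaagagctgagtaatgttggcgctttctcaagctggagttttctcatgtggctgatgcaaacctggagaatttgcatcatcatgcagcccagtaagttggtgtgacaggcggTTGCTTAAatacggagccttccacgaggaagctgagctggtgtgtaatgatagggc
The Mt1 window held 3 metal matches, at −23, 3 and 21 from the annotated start. The Mt2 window held 4 metal matches, 1 antioxidant match and 1 C/EBP match. The letters of that antioxidant match also contain TGACTCA, the sequence bound by AP-1. The Srxn1 window holds the same sequence on the other strand, as TGAGTCA, which is not marked because it was not searched for. Srxn1 held 1 antioxidant and 1 metal match, and Slc7a11 held 2 C/EBP matches and neither of the others. Among the windows not shown, Gclm held 1 antioxidant and 3 metal matches, of which 1 pair overlapped, and 1 of 3 Txnrd1 starts held 1 antioxidant match. Nqo1, which fell in OE, and Sod2, which rose, held none. Mt2 fell although its window held a C/EBP match, so the C/EBP matches did not separate these genes by direction. The genes with an antioxidant or metal match all fell, but so did Nqo1 without one, and this was not tested. A match describes the letters of the window and was not tested for binding.

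The libraries held between 20160081 and 23304230 counts. Cebpa had 0.963, 0.257 and 0.164 counts per 1000000 (CPM) in KO, against 309, 229 and 290 CPM in WT, and 13290 to 14080 CPM in OE, against 48.0 to 54.3 CPM in GFP, so each library matched its label. Levels in CPM are scaled within each experiment (KO with WT, OE with GFP) by TMM. Summed hepatocyte markers (7 of 8 symbols were found) were 115700 to 131600 CPM in KO, against 98210 to 102300 CPM in WT, and 10500 to 10950 CPM in OE, against 23830 to 24430 CPM in GFP. The 15 macrophage markers summed to 14.6 to 49.8 CPM in KO, against 3.89 to 24.1 CPM in WT, with none at 0 in either group. In OE they summed to 106 to 120 CPM with Ptprc at 0, against 126 to 139 CPM in GFP, where Adgre1, Clec4f, Marco and Timd4, which mark tissue macrophages, were at 0. Nearly all of the OE and GFP sums was Cd68, a lysosomal membrane gene, at 103 to 116 CPM in OE and 124 to 137 CPM in GFP, which was under 1 CPM in all KO and WT libraries. The 8 neutrophil markers were at 0 in all GFP libraries and summed to 552 to 647 CPM in OE, with Mpo and Ly6g at 0. The 6 erythroid markers summed to 38.2 to 47.0 CPM in KO, against 70.2 to 112 CPM in WT. The 12 stellate cell markers summed to 16.9 to 26.1 CPM in KO, against 6.15 to 13.4 CPM in WT, and to 64.2 to 67.9 CPM in OE, against 28.1 to 29.6 CPM in GFP, with Acta2 at 0 in KO and Col1a1 and Acta2 at 0 in WT. Of the cholangiocyte markers, Spp1, the gene of osteopontin, had 327, 447.5 and 362 CPM in KO, against 4.53 to 11.5 CPM in WT, and Sox9 had 25.7, 54.2 and 28.7 CPM in KO, against 6.69, 9.58 and 10.5 CPM in WT, while Epcam, Krt19 and Krt7, which define bile duct cells, had at most 0.309 CPM in KO and 0.0856 CPM in WT. The part of other cells in the results below was not tested, and in bulk RNA fewer cells of a type and less RNA per cell cannot be told apart.

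**Figure D1:**
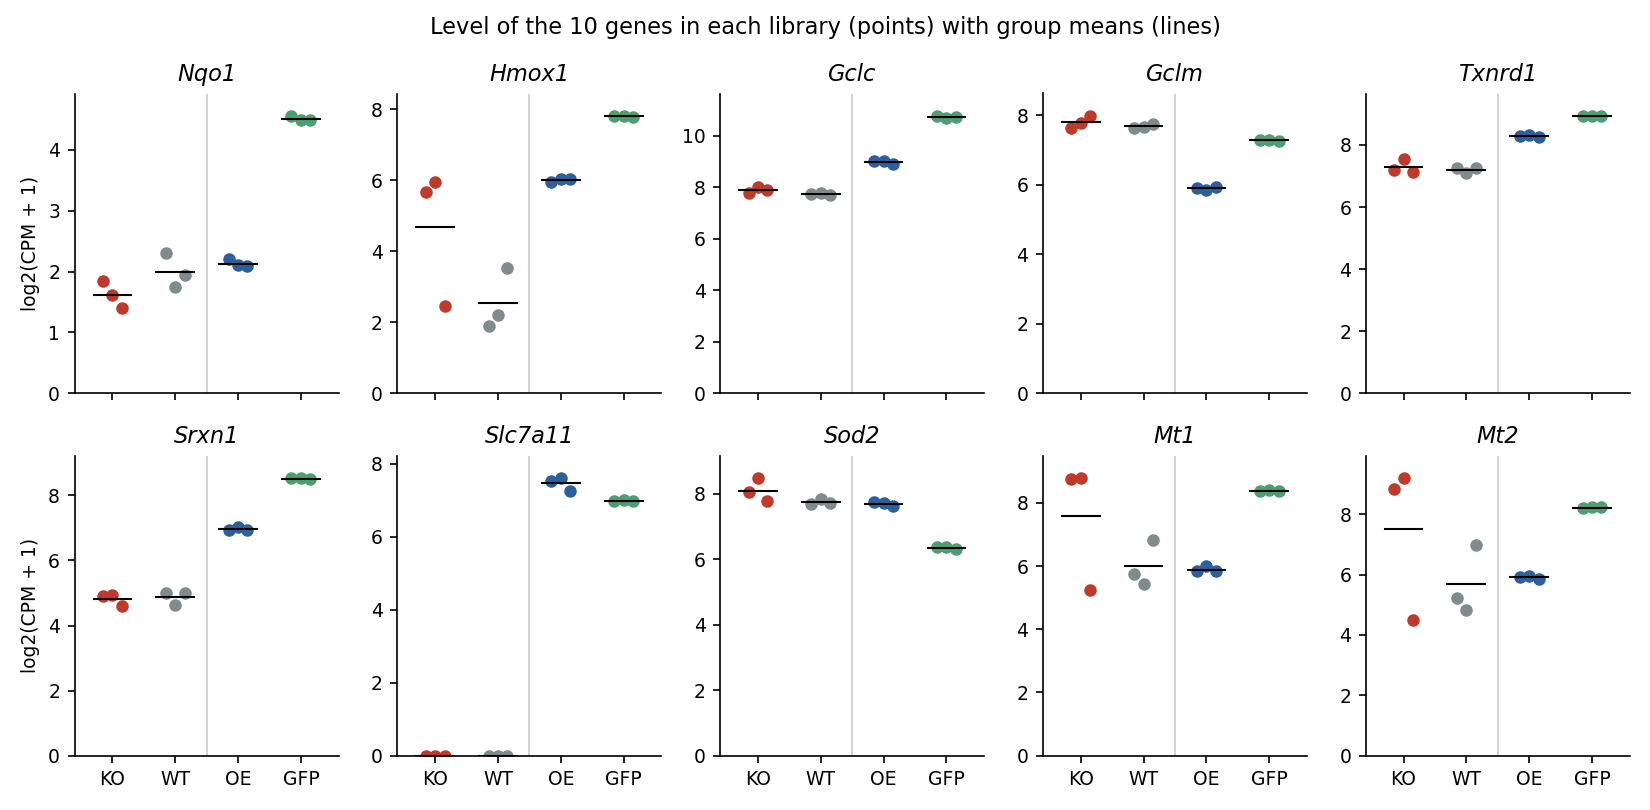
Levels of the 10 genes as log2(CPM + 1) on the vertical axis in each library (points), with the mean of each group (lines), for KO and WT on the left and OE and GFP on the right of each panel. The 3 OE libraries lay below the 3 GFP libraries for 8 genes and above them for Sod2 and Slc7a11, whereas KO and WT overlapped for every gene, and Slc7a11 was at 0 in both.

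OE and GFP hepatocytes were compared to see which of these genes moved with forced Cebpa expression. Nqo1, Hmox1, Gclc, Gclm, Txnrd1, Srxn1, Mt1 and Mt2 were lower in OE than in GFP, by 1.56-fold to 6.42-fold, and Sod2 and Slc7a11 were higher, by 2.55-fold and 1.40-fold. All 10 passed at an adjusted p under 0.05 in edgeR's quasi-likelihood test. In this comparison 86.6% of the 14889 genes tested passed, so passing alone says little about these 10. Of all genes tested, 42.7% passed as lower, 43.9% passed as higher and 42.0% passed with more than a 2-fold change, against 8, 2 and 8 of the 10. The median log2 fold change of the 10 was −1.65, beside 0.01 over all genes. OE and GFP libraries did not overlap for any of the 10, as for 87.0% of all genes.

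Nqo1, the quinone reductase that is a classical readout of NRF2, had 3.59, 3.33 and 3.24 CPM in OE, against 22.6, 21.4 and 21.5 CPM in GFP. The OE libraries were all far below the GFP libraries, and its log2 fold change of −2.68 ± 0.09 (SE) was the largest of the 10 in size with TMM (edgeR, adjusted p = 5.31e-13), while in limma on log2(TPM + 1) that of Mt1 was larger, at −2.18 beside −2.14. Hmox1, the inducible heme oxygenase, had 60.6, 64.9 and 64.2 CPM in OE, against 223, 225 and 221 CPM in GFP. It fell by 1.82 ± 0.03 on the log2 scale (edgeR, adjusted p = 1.03e-15).

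The enzymes of glutathione synthesis fell together. Gclc, the catalytic subunit of glutamate-cysteine ligase, had 522, 519 and 480 CPM in OE, against 1763, 1645 and 1695 CPM in GFP, a log2 fold change of −1.75 ± 0.04 (edgeR, adjusted p = 1.89e-14). Gclm, the modifier subunit of the same enzyme, had 59.4, 56.9 and 60.2 CPM in OE, against 155, 155 and 152 CPM in GFP, a log2 fold change of −1.39 ± 0.03 (edgeR, adjusted p = 1.44e-14). In limma on log2(TPM + 1) Gclm fell by 0.72, less than 2-fold. Per length, in TPM, the catalytic subunit stood above the modifier in these cells, with a Gclc to Gclm ratio of 2.34 to 2.68 in OE and 3.90 to 4.20 in GFP. In KO and WT the order was the other way round, with ratios of 0.495 to 0.626 in KO and 0.478 to 0.633 in WT.

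Slc7a11, the light chain of the cystine importer that feeds glutathione synthesis, went the other way. It had 183, 194 and 152 CPM in OE, against 125, 128 and 125 CPM in GFP, so that all OE libraries were above all GFP libraries, with the third OE library the nearest to them. Its log2 fold change of 0.49 ± 0.06 (edgeR, adjusted p = 6.01e-06) was the smallest of the 10 in size with TMM, but not with library totals or in TPM. On the TPM scale the change was larger, 49.8, 49.9 and 41.4 TPM in OE against 20.4 to 20.98 TPM in GFP, a log2 difference of 1.14 in limma on log2(TPM + 1).

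Of the thioredoxin cycle, Txnrd1, the cytosolic thioredoxin reductase, had 312, 321 and 307 CPM in OE, against 488, 488 and 491 CPM in GFP. Its log2 fold change was −0.64 ± 0.03 (edgeR, adjusted p = 2.19e-11), the smallest of the 8 that fell. Srxn1, sulfiredoxin, which restores oxidized peroxiredoxins, had 122, 131 and 121 CPM in OE, against 369, 368 and 361 CPM in GFP, a log2 fold change of −1.55 ± 0.03 (edgeR, adjusted p = 8.37e-15). Txnrd1 thus changed by less than 2-fold and Srxn1 by 2.94-fold.

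Sod2, the mitochondrial manganese superoxide dismutase, which is also a target of NF-kB, had 211, 209 and 194 CPM in OE, against 80.9, 82.0 and 77.6 CPM in GFP. It rose by 1.35 ± 0.04 on the log2 scale (edgeR, adjusted p = 1.01e-13), the largest rise among the 10. Both metallothionein genes fell. Mt1 had 56.7, 62.5 and 56.0 CPM in OE, against 328, 337 and 331 CPM in GFP, a log2 fold change of −2.51 ± 0.04 (edgeR, adjusted p = 2.93e-16). Mt2 had 60.1, 61.4 and 57.2 CPM in OE, against 293, 299 and 300 CPM in GFP, a log2 fold change of −2.32 ± 0.03 (edgeR, adjusted p = 1.21e-16). The genes are neighbors on the plus strand of chromosome 8 (mm10, GENCODE M21), Mt2 from 94172664 to 94173568 and Mt1 from 94179082 to 94180327, and Mt2 stood at 1.11 to 1.19 of the Mt1 level in TPM in OE and at 1.00 to 1.03 of it in GFP.

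All 10 kept their direction and call under every alternative run. Scaling by library totals moved the median of all genes from 0.01 to 0.15, and TPM moved it to 0.27 or 0.30. On the TPM scale 63.4% of the calls among all genes were higher in OE, beside 50.7% with TMM.

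**Figure D2:**
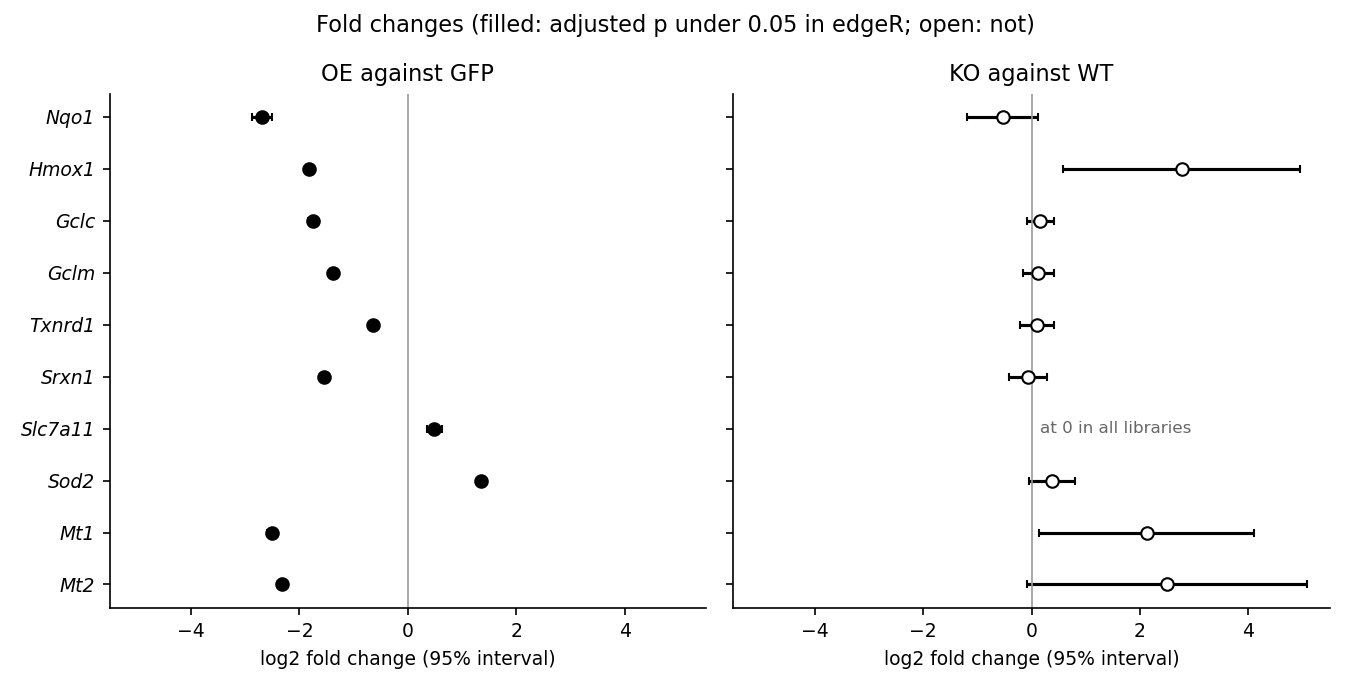
Log2 fold changes of the 10 genes on the horizontal axis with 95% intervals, for OE against GFP on the left and KO against WT on the right. Filled points passed at an adjusted p under 0.05 in edgeR and open points did not. In OE all 10 passed, 8 below 0 and 2 above it, and in KO none of the 9 tested passed, with intervals of Hmox1, Mt1 and Mt2 that span about 4 log2 units or more.

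TPM divides by a length that RSEM weights by the abundance of the transcripts of a gene. This length varied most for Gclm, Sod2 and Slc7a11. For Gclm it was 1086 to 1131 bases in OE, against 1327 to 1394 bases in GFP, and 1768 to 1879 bases in KO, against 1758 to 2044 bases in WT. For Sod2 it was 1068 to 1098 bases in OE, against 1150 to 1199 bases in GFP, and 1576 to 1773 bases in KO, against 1631 to 1655 bases in WT. For Slc7a11 it was 6860 to 7259 bases in OE, against 9042 to 9165 bases in GFP. In all 3 genes the length was shorter in every OE library than in every GFP library, and for Gclm and Sod2 it was shorter in OE and GFP than in KO and WT. For Nqo1, Gclc, Txnrd1, Hmox1 and Mt2 the longest and shortest library values differed by at most 1.02-fold. Gclm overlaps the pseudogene Gm6061 on its own strand, which was listed at 4.91 to 8.10 TPM in OE, against 3.27 to 6.75 TPM in GFP, and reads may be shared between the pair.

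**Figure D3:**
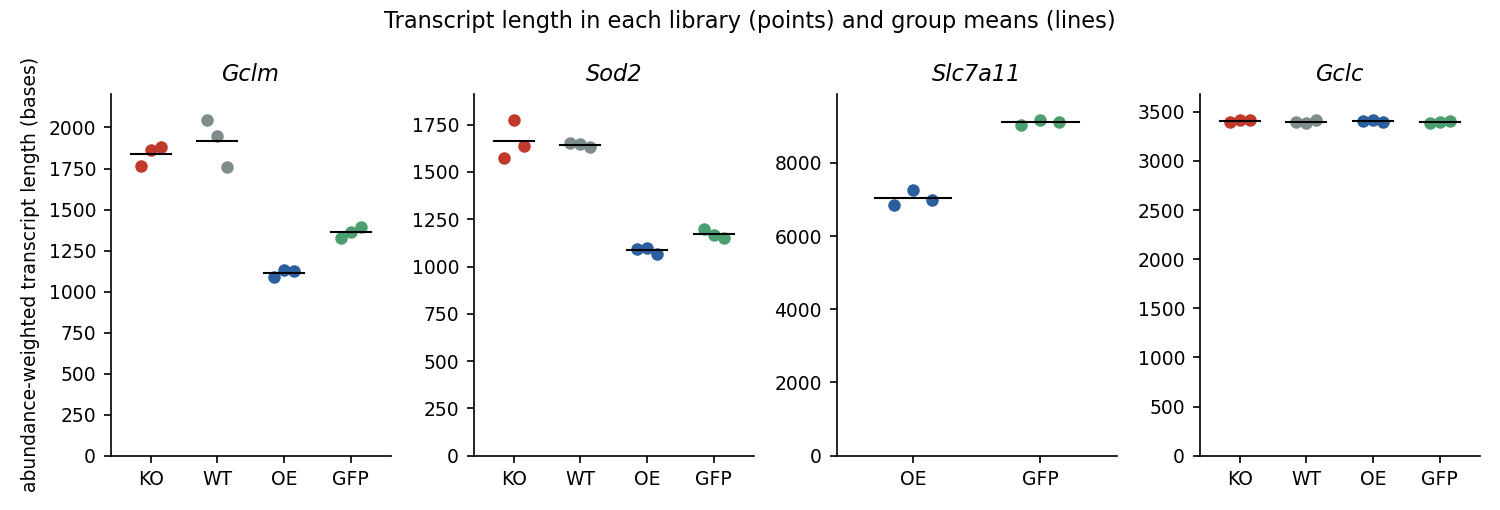
Abundance-weighted transcript length in bases on the vertical axis in each library (points), with group means (lines), for Gclm, Sod2, Slc7a11 and, as a gene with a steady length, Gclc. Slc7a11 is drawn only in OE and GFP, because no reads were assigned to it in KO and WT. The lengths of Gclm, Sod2 and Slc7a11 are shorter in OE than in GFP.

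The regulators of NRF2 did not move as a block in OE. Of 9, 5 rose, 2 fell and 2 did not pass, with a median log2 fold change of 0.10. Over all genes tested, 43.9% passed as higher and 42.7% as lower. Nfe2l2 itself had 551, 561 and 539 CPM in OE, against 248, 251 and 260 CPM in GFP, a rise of 1.12 ± 0.03 on the log2 scale (edgeR, adjusted p = 9.19e-14), while 8 of the 10 genes fell. Bach1, a repressor that competes with NRF2 for small MAF partners at Hmox1 and other genes, had 312, 308 and 316 CPM in OE, against 69.9, 78.3 and 72.1 CPM in GFP, and rose by 2.08 ± 0.04 on the log2 scale (edgeR, adjusted p = 1.50e-15). Sqstm1, which encodes p62, an autophagy receptor that binds KEAP1 and is itself an NRF2 target, had 621, 639 and 591 CPM in OE, against 1481, 1502 and 1541 CPM in GFP, and fell by 1.29 ± 0.04 (edgeR, adjusted p = 1.37e-13). For each of these 3 genes the groups were wide apart.

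The other regulators changed less. Nfe2l1, an NRF2 relative, averaged 374 ± 9.19 CPM in OE and 229 ± 0.963 CPM in GFP (SD, n = 3 each), and Cul3 averaged 247 ± 6.64 CPM in OE and 172 ± 0.687 CPM in GFP. Both passed as higher in edgeR, at log2 fold changes of 0.71 ± 0.03 and 0.52 ± 0.03. Keap1 averaged 75.5 ± 2.05 CPM in OE and 71.5 ± 1.86 CPM in GFP and did not pass (edgeR, adjusted p = 0.0536), though it passed as higher under the 4 other scalings. Of the small MAF genes, Mafg passed with a log2 fold change of 0.10, Mafk did not pass, at −0.03, and Maff passed with −0.22, and both Maff and Mafk changed sign on other scales, up to 0.12 and 0.28. Maff kept its call under 1 of the 4 other scalings, and Mafk passed under 3 of them. In TPM, 7 of the 9 regulators rose and 1 fell, beside 7100 higher and 4093 lower of 13848 genes in limma on log2(TPM + 1).

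**Figure D4:**
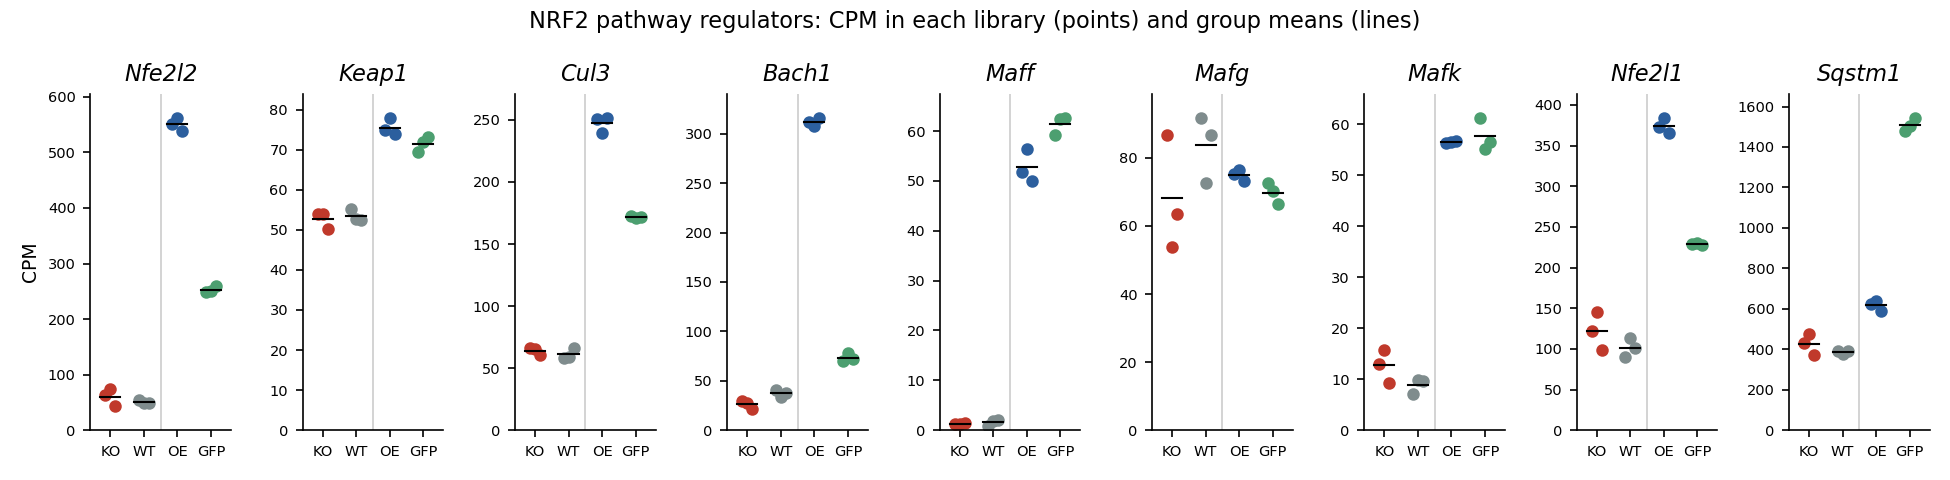
CPM of the 9 NRF2 pathway regulators on the vertical axis in each library (points), with group means (lines), for KO, WT, OE and GFP. Nfe2l2 and Bach1 are higher in OE than in GFP, Sqstm1 is lower, and KO and WT lie close to each other.

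Further NRF2 targets were mostly lower in OE. Of 31 listed, such as NADPH-producing enzymes and glutathione transferases, 24 fell, 5 rose and 2 did not pass, with a median log2 fold change of −1.05. Over all genes, 42.7% passed as lower and 43.9% as higher. The lowest p values were those of Ephx1, the microsomal epoxide hydrolase, at 67.1 ± 2.47 CPM in OE and 472 ± 14.0 CPM in GFP, of Gsta3, a glutathione transferase, at 21.4 ± 2.51 CPM in OE and 376 ± 15.4 CPM in GFP, and of Ftl1, the ferritin light chain, at 837 ± 31.3 CPM in OE and 3837 ± 42.9 CPM in GFP (SD, n = 3 each). Their log2 fold changes were −2.81, −4.14 and −2.20. On the TPM scale 20 of the 31 fell and 7 rose, beside 4093 lower and 7100 higher of 13848 genes.

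In the glutathione and thioredoxin cycle, 18 of 26 tested genes fell and 6 rose, beside 42.7% and 43.9% of all genes. The median of the 26 was −0.64. Txn2, the mitochondrial thioredoxin, averaged 59.3 ± 2.59 CPM in OE and 217 ± 4.35 CPM in GFP, and Gss, glutathione synthetase, 35.0 ± 0.455 CPM in OE and 111 ± 4.46 CPM in GFP (SD, n = 3 each). Ggct, a gamma-glutamyl cyclotransferase, rose to 69.4 ± 1.40 CPM in OE, against 7.29 ± 1.10 CPM in GFP. On the TPM scale 14 of these 26 fell and 10 rose, beside 4093 lower and 7100 higher of 13848 genes.

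Among other enzymes of superoxide and peroxide, 4 of 6 tested fell and 1 rose, beside 42.7% and 43.9% of all genes. Nox4, an NADPH oxidase that produces hydrogen peroxide, averaged 13.6 ± 0.386 CPM in OE and 297 ± 12.4 CPM in GFP, and Ucp2, a mitochondrial carrier, 16.4 ± 0.555 CPM in OE and 122 ± 4.85 CPM in GFP. Catalase (Cat) passed as lower at −0.33 with TMM, but not on the TPM scale, where its adjusted p in limma was up to 0.856. In heme turnover, 7 of 10 fell and 2 rose, beside the same shares of all genes. In limma on log2(TPM + 1), 6 of these 10 fell and 4 rose, and 2 of 5 superoxide and peroxide enzymes fell and 1 rose. These TPM counts stand beside 4093 lower and 7100 higher of 13848 genes. Hmox2, the constitutive heme oxygenase, rose to 229.9 ± 3.02 CPM in OE, against 55.7 ± 1.54 CPM in GFP, opposite to Hmox1. Slc48a1, a heme transporter, fell to 37.5 ± 2.19 CPM in OE, against 187 ± 2.12 CPM in GFP, and Hpx, the plasma heme carrier hemopexin, to 2210 ± 60.6 CPM in OE, against 7288 ± 326 CPM in GFP.

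Metal handling genes other than Mt1 and Mt2 split evenly, as all genes did, at 43.9% higher and 42.7% lower. In OE 9 of 17 tested were higher and 8 lower, with a median of 0.27. On the TPM scale 9 rose and 5 fell, beside 7100 higher and 4093 lower of 13848 genes. Slc39a8, which imports zinc and manganese, averaged 202 ± 5.71 CPM in OE and 39.3 ± 2.03 CPM in GFP, and Atp7a, a copper exporter, 71.9 ± 1.65 CPM in OE and 11.9 ± 0.834 CPM in GFP. Cp, the copper-carrying plasma protein ceruloplasmin, fell to 446 ± 28.8 CPM in OE, against 2296 ± 133 CPM in GFP.

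The NF-kB and acute phase list, whose cytokine signals also reach Sod2 and the metallothioneins, split evenly in OE as well, with 10 of 20 tested higher and 10 lower and a median of −0.01. This split is near that of all genes, at 43.9% higher and 42.7% lower. Ccl2, a monocyte chemokine, averaged 4.51 ± 0.834 CPM in OE and 149 ± 2.39 CPM in GFP, a log2 fold change of −5.03. Stat3, the acute phase transcription factor, averaged 363 ± 4.39 CPM in OE and 121 ± 2.59 CPM in GFP, and Orm1, an acute phase glycoprotein, 1012 ± 30.2 CPM in OE and 465 ± 12.2 CPM in GFP (SD, n = 3 each). Both passed as higher in OE. In TPM 10 of the list rose and 7 fell, beside 7100 higher and 4093 lower of 13848 genes.

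KO and WT hepatocytes were compared to see which of these genes moved with the loss of Cebpa. None of the 9 genes tested passed in edgeR, beside 1.71% of the 11846 genes tested, of which 0.692% passed as higher and 1.02% as lower, and 1.36% with more than a 2-fold change. At an unadjusted p under 0.05 there were 2, Hmox1 and Mt1, beside 13.9% of all genes. No member passed in DESeq2 or limma either. The median log2 fold change of the 9 was 0.16, beside 0.01 over all genes, and KO and WT libraries overlapped for each of the 9, whereas 20.0% of all genes had no overlap. Slc7a11 had 0 counts in all 6 libraries, which allows up to 0.0465 CPM over the KO group and 0.0438 CPM over the WT group, by counting error only.

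Hmox1, Mt1 and Mt2 had the largest fold changes and the largest spread. Mt1 had 429.8, 439 and 36.8 CPM in KO, against 53.3, 42.3 and 112 CPM in WT, a log2 fold change of 2.12 ± 0.84 (edgeR, adjusted p = 0.332). Mt2 had 459.8, 587 and 21.4 CPM in KO, against 36.8, 27.2 and 125 CPM in WT, a log2 fold change of 2.5 ± 1.1 (edgeR, adjusted p = 0.376). Hmox1 had 49.9, 60.3 and 4.48 CPM in KO, against 2.75, 3.57 and 10.4 CPM in WT, a log2 fold change of 2.77 ± 0.93 (edgeR, adjusted p = 0.25). For each of the 3 the first and second KO libraries were above all WT libraries, the third KO library was below the third WT library, and that WT library was the highest of its group.

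The calls depended on the third KO library and on the fit. Without that library, Hmox1 (3.29, adjusted p = 0.0293) and Mt1 (2.65, adjusted p = 0.0279) passed in edgeR and Mt2 (adjusted p = 0.0601) did not. With all libraries kept, Hmox1 also passed in the edgeR fit of all 12 libraries (2.74, adjusted p = 0.0390). Some genes of the acute phase list, chosen after their values were seen, had the same split. Saa2, a serum amyloid, had 1060, 1896 and 22.5 CPM in KO, against 13.1, 19.6 and 164 CPM in WT, Lcn2, lipocalin 2, had 219, 214 and 0.821 CPM in KO, against 15.5, 7.56 and 146 CPM in WT, and Icam1, an adhesion molecule, had 119.5, 264 and 17.4 CPM in KO, against 6.69, 6.02 and 21.3 CPM in WT. Orm1, of the same list, did not, with 71.6, 34.1 and 3.65 CPM in KO, against 214, 394 and 519 CPM in WT, so that all KO libraries were below all WT libraries. None of the 19 tested genes of the NF-kB and acute phase list passed in edgeR, with a median log2 fold change of 1.80. The lowest p was that of Cxcl2, a neutrophil chemokine, at 3.50 ± 0.92 on the log2 scale (edgeR, adjusted p = 0.142). The 15 macrophage markers summed to 42.6, 49.8 and 14.6 CPM in KO, against 3.89, 6.66 and 24.1 CPM in WT. Endothelial markers had the same split, at 42.8, 44.8 and 20.5 CPM in KO, against 18.5, 27.2 and 31.7 CPM in WT. Stellate cell markers summed to 25.4, 26.1 and 16.9 CPM in KO, against 6.87, 6.15 and 13.4 CPM in WT, so the third KO library was again the lowest of its group. The part of the acute phase genes or of any of these cell types in the values of Hmox1, Mt1 and Mt2 was not tested.

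**Figure D5:**
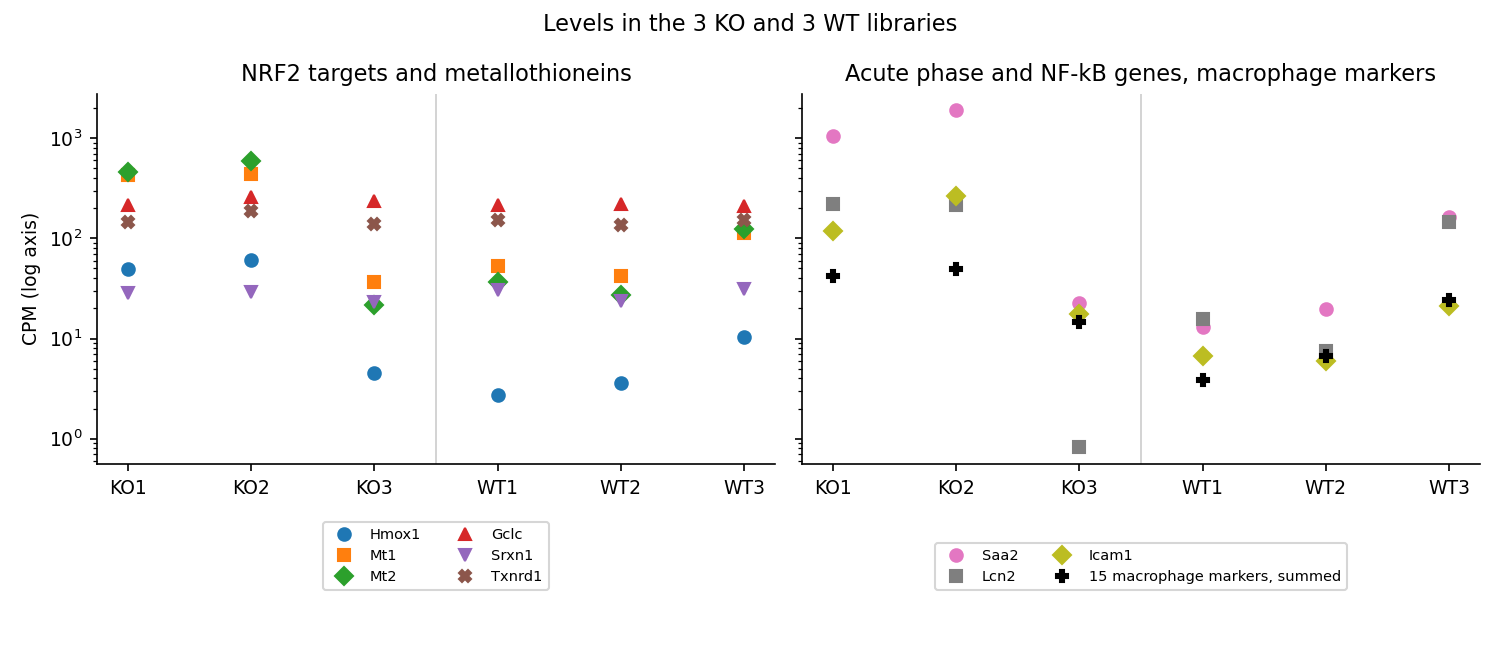
CPM on a log axis in the 3 KO and 3 WT libraries, for 6 of the genes on the left and for Saa2, Lcn2, Icam1 and the sum of 15 macrophage markers on the right. Hmox1, Mt1 and Mt2 are high in the first and second KO libraries and low in the third, as are Saa2, Lcn2 and Icam1, while Gclc, Srxn1 and Txnrd1 stay level.

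The genes of glutathione and thioredoxin enzymes were nearly level in KO and WT. Gclc had 217, 261 and 238 CPM in KO, against 215, 219 and 209 CPM in WT, with a log2 fold change whose 95% interval was −0.09 to 0.40. Gclm had 196, 216 and 252 CPM in KO, against 196, 202 and 213 CPM in WT, an interval of −0.16 to 0.41. Both subunits of the ligase thus overlapped between the groups. Txnrd1 had 146, 186 and 141 CPM in KO, against 151, 137 and 152 CPM in WT, an interval of −0.21 to 0.42. Srxn1 had 28.8, 29.5 and 23.3 CPM in KO, against 30.7, 23.7 and 31.1 CPM in WT, an interval of −0.42 to 0.28. Changes of 2-fold lay outside each of these 4 intervals.

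Sod2 had 262, 354 and 218 CPM in KO, against 203, 229 and 211 CPM in WT, with the second KO library the highest and a log2 fold change of 0.37 ± 0.18 (edgeR, adjusted p = 0.419). Nqo1 was low in both groups, with 2.60, 2.06 and 1.64 CPM in KO, against 3.94, 2.36 and 2.82 CPM in WT. Its log2 fold change of −0.54 ± 0.28 did not pass (edgeR, adjusted p = 0.441), and its interval of −1.19 to 0.12 reached beyond a 2-fold fall.

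Few genes of the related lists passed in KO, as of all genes, of which 0.692% passed as higher and 1.02% as lower. None of the 9 NRF2 regulators did. Bach1 had the lowest p of them, at 26.1 ± 3.91 CPM in KO and 37.3 ± 3.79 CPM in WT (SD, n = 3 each), a log2 fold change of −0.51 ± 0.14 (edgeR, adjusted p = 0.155), and Nfe2l2 averaged 59.8 ± 15.6 CPM in KO and 50.6 ± 3.34 CPM in WT. Of 28 other NRF2 targets tested 1 rose, Gsta2, a glutathione transferase, at 112 ± 22.3 CPM in KO and 34.3 ± 5.08 CPM in WT (log2 fold change 1.70 ± 0.18, edgeR, adjusted p = 0.00908). Of 23 glutathione and thioredoxin genes 2 fell. Cth, the cystathionine gamma-lyase that makes cysteine, averaged 175 ± 30.1 CPM in KO and 329.9 ± 37.6 CPM in WT (edgeR, adjusted p = 0.0415), and Prdx6, a peroxiredoxin, 269 ± 17.8 CPM in KO and 407 ± 25.5 CPM in WT (edgeR, adjusted p = 0.0470). Both calls were close to the threshold. Cth passed under 2 of the 4 other scalings, with an adjusted p of up to 0.059, and Prdx6 under 1 of them, with an adjusted p of up to 0.0585, and neither passed in limma on the TPM scales. None of 17 metal handling, 10 heme turnover and 5 superoxide and peroxide genes tested passed. The lowest p values in these lists were those of Slc39a4, a zinc importer, at 0.58 ± 0.14 on the log2 scale (edgeR, adjusted p = 0.127), of Blvrb, a biliverdin reductase, at −0.61 ± 0.14 (edgeR, adjusted p = 0.106), and of Ucp2, at 1.31 ± 0.34 (edgeR, adjusted p = 0.138).

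The effects of OE and KO were set against each other in a fit of all 12 libraries, as the difference of OE against GFP less KO against WT. It passed in edgeR for all 9 genes tested, beside 54.1% of the 15326 genes tested, with 8 below 0, beside 28.1%, and Sod2 above it, beside 25.9%. An unadjusted p under 0.05 was reached by 58.8% of all genes and a call over 2-fold by 31.3%. On the TPM scale 66.7% of calls over all genes were above 0, beside 47.9% with TMM. Each gene had a single dispersion in this fit, while the biological coefficient of variation was 20.4% in KO and WT and 4.04% in OE and GFP, so it may understate the spread of KO and WT. For Gclc the difference was −1.88 ± 0.11 on the log2 scale (edgeR, adjusted p = 7.11e-08), where OE was below GFP in all libraries and KO overlapped WT. For Mt1 it was −4.60 ± 0.93 (edgeR, adjusted p = 0.00131), where OE was below GFP in all libraries and KO was above WT in its first and second libraries only. Culture, virus and mouse of origin cannot be told apart from Cebpa in this difference.

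GFP and WT hepatocytes were set side by side to place the levels of the control groups. Virus, culture, mouse and the level of Cebpa cannot be told apart in this comparison, and it shares libraries with both comparisons above. Cebpa itself was lower in GFP than in WT, at a log2 fold change of −3.77 ± 0.12 with TMM (edgeR, adjusted p = 3.14e-08). In edgeR 9 of the 10 passed, 7 higher and 2 lower in GFP, beside 83.3% of the 13760 genes tested, of which 45.0% passed as higher and 38.4% as lower. More than a 2-fold change was passed by 7, beside 50.3% of all genes, and groups without overlap were seen for 9, beside 85.3%. At an unadjusted p under 0.05 there were 9, beside 84.0%. It also depends on the scale. TMM put the median of all genes at 0.13, library totals put it at 1.36 and TPM at 1.33 or 1.52, and the share of calls that were higher was 53.9% with TMM, 83.4% with library totals and 85.8% in limma on log2(TPM + 1).

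On the TMM scale of these 6 libraries Hmox1 had 138.5, 139.9 and 137 CPM in GFP, against 4.28, 5.62 and 16.2 CPM in WT, a log2 fold change of 3.98 ± 0.39 (edgeR, adjusted p = 2.37e-05) with TMM and 5.22 with library totals. Srxn1 had 229, 229 and 224 CPM in GFP, against 47.9, 37.4 and 48.3 CPM in WT (2.35 ± 0.10, edgeR, adjusted p = 1.52e-07). Gclc had 1093, 1024 and 1050.0 CPM in GFP, against 334, 344 and 325 CPM in WT (1.66 ± 0.06, edgeR, adjusted p = 8.58e-08). In each of these 3 genes all GFP libraries were above all WT libraries. Nqo1 had 14.0, 13.3 and 13.3 CPM in GFP, against 6.13, 3.73 and 4.39 CPM in WT (1.51 ± 0.16, edgeR, adjusted p = 3.93e-05), and Txnrd1 had 303, 304 and 304 CPM in GFP, against 236, 215 and 236 CPM in WT (0.41 ± 0.06, edgeR, adjusted p = 0.000295). These 5 were higher in GFP under every alternative run.

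Slc7a11 showed the widest contrast, with 77.2, 79.6 and 77.6 CPM in GFP and 0 counts in all WT libraries (edgeR, adjusted p = 1.52e-08). Set against 3 counts over the WT group it was at least 1140-fold higher in GFP with TMM and at least 2690-fold higher with library totals. Sod2 was lower, with 50.2, 51.0 and 48.1 CPM in GFP, against 317, 361 and 327 CPM in WT, at −2.75 ± 0.07 with TMM (edgeR, adjusted p = 1.03e-08), −1.51 with library totals and −0.74 in limma on log2(TPM + 1). Gclm was lower at −1.74 ± 0.06 with TMM (edgeR, adjusted p = 3.64e-08) and at −0.50 with library totals, but higher at 0.26 in limma on log2(TPM + 1), so that its direction rests on the scale.

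The calls among regulators and wider targets of NRF2 also depended on the scale. Of 9 regulators 5 were higher and 3 lower in GFP with TMM, against 8 higher and 1 lower with library totals. Of 31 other NRF2 targets 9 were higher and 17 lower in GFP with TMM, against 16 higher and 13 lower with library totals. Of 26 glutathione and thioredoxin genes 11 were higher and 13 lower with TMM, against 18 higher and 5 lower with library totals. Over all 13760 genes tested, 6186 were higher and 5282 lower with TMM, against 10410 higher and 2074 lower with library totals. The shift toward higher calls was thus seen over all genes. Maff (3.94), Nfe2l2 (0.99) and Sqstm1 (0.64) passed as higher in GFP with TMM and under the 4 other scalings, whereas Keap1 (−0.91) and Bach1 (−0.35) passed as lower with TMM and were higher on other scales, up to 0.54 and 1.07.

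Of the metallothioneins, Mt1 had 203, 209.8 and 205 CPM in GFP, against 82.9, 66.7 and 175 CPM in WT, and passed with a log2 fold change of 0.93 ± 0.31 (edgeR, adjusted p = 0.0230). That call was lost in the fit of all 12 libraries and without any 1 of 5 of the 6 libraries, at an adjusted p in edgeR of 0.0528 to 0.195 and log2 fold changes of 0.67 to 0.95. With library totals Mt1 passed at 2.17 (edgeR, adjusted p = 0.000233) and in limma on log2(TPM + 1) at 2.68 (adjusted p = 0.000437). Mt2 had 181, 186 and 186 CPM in GFP, against 57.3, 42.8 and 194 CPM in WT, and did not pass (0.91 ± 0.49, edgeR, adjusted p = 0.117), but did without the third WT library (1.88, edgeR, adjusted p = 4.83e-06) and with library totals (2.15, edgeR, adjusted p = 0.00357).

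In TPM, which allows levels of different genes to be compared, Mt2 and Mt1 had the highest group means of the 10 in KO, WT and GFP. They stood at 1427 ± 1181 and 992 ± 775 TPM in KO and at 267 ± 232 and 231 ± 136 TPM in WT. In GFP they stood at 1342 ± 31.8 and 1324 ± 28.2 TPM (SD, n = 3 each). In WT this rank rested on the third library. Sod2 had 192 and 205 TPM in the first and second WT libraries, against 191 and 120 TPM for Mt1 and 157 and 110 TPM for Mt2. In the third KO library Sod2, at 203 TPM, was also above Mt1 and Mt2, at 98.3 and 89.2 TPM. In OE the first place was held by Sod2, at 416 ± 7.78 TPM, followed by Mt2 at 335 ± 8.76 TPM and by Mt1 and Gclc, whose difference lay within their spread, at 292 ± 16.2 and 288 ± 9.71 TPM. The order of the metallothioneins within KO and WT also lay within their spread. Nqo1 was low everywhere, at 2.03 ± 0.453 TPM in KO, 3.04 ± 0.877 TPM in WT, 4.53 ± 0.200 TPM in OE and 23.4 ± 0.526 TPM in GFP. By group, Mt1 was highest in GFP and in the first and second KO libraries (1483 and 1395 TPM), and its OE values of 281 to 311 TPM lay inside the WT range of 120 to 383 TPM. That placement of OE beside WT depends on the scale. With TMM over all 12 libraries, every OE library was below every WT library for Mt1.

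The genes whose level followed these most closely over the 12 libraries were taken by Pearson correlation of log2(CPM + 1), among 8624 genes with a mean of at least 10 CPM. The libraries form 4 groups, so these correlations mostly describe group means and have no p. For Mt1 they were Il22ra1 (r = 0.967), Cltc (r = 0.958) and Tgtp1 (r = 0.956). Il22ra1, a subunit of the interleukin 22 receptor, shared the split between the KO libraries, with 34.0, 29.5 and 10.7 CPM in KO, against 7.92, 6.23 and 14.3 CPM in WT. For Srxn1 they included Zfand2a and Ptp4a3, each at r = 0.994, and for Nqo1 they were Gart (r = 0.979), Sf3b5 (r = 0.976) and Rtel1 (r = 0.975), none of them a gene of the lists above.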

How the data were processed

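Poly(A) RNA of 12 libraries was sequenced from stranded libraries. Per the submitters' processing notes, the authors used Trimmomatic 0.36, STAR 2.5.1, Picard 1.84, RSEM 1.2.22 and DESeq2, with the mm10 genome. The deposited tables hold expected counts, which RSEM estimates and does not scale to depth, TPM, which the authors' RSEM run scaled for length and to 1000000 per library, and an abundance-weighted transcript length. Reads that fit several genes are split by RSEM.

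Expected counts were rounded, filtered with filterByExpr (minimum count 10, minimum total 15), scaled by TMM and tested with the quasi-likelihood F test of edgeR 4.0.16 (R 4.3.3), where p values were adjusted by Benjamini-Hochberg across the whole table and calls made at an adjusted p under 0.05. Each comparison was fitted on its own 6 libraries and the difference of effects on all 12. CPM levels were scaled within each experiment, although a single scale over all 12 had been planned, which was kept for the correlations of gene patterns. The alternatives were DESeq2 1.42.0, other scalings and filters, limma 3.58.1 on log2(TPM + 1) and log2(TPM + 0.1), a replicate block, a fit of all 12 libraries and leaving out each library. Tests were 2-sided, and the pipeline was tested on simulated data. Replicates differed by more than sampling noise. A fold against a group at 0 uses 3 counts over that group, which covers counting error only.

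The 10 genes and the 10 related lists were chosen with earlier results of these data known. Named were all 10, all NRF2 regulators, and at most 3 called genes of lowest p per list (if none was called, the 1 of lowest p). Saa2, Lcn2 and Icam1 were chosen after their values were seen. Coordinates are from GENCODE M21 and promoters from RefSeq (GRCm38.p6). No library was left out. Some results that need withheld items are not reported here.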

Additional observations from a re-analysis of the deposited data

Results flagged for a closer look

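The effect of OE against GFP differed from that of KO against WT for all 9 genes in which both could be tested, by the difference of effects in edgeR on all 12 libraries, beside 54.1% of all genes. On the log2 scale it was −2.12 for Nqo1, −4.54 for Hmox1, −1.88 for Gclc, −1.48 for Gclm, −0.72 for Txnrd1, −1.46 for Srxn1, 1.01 for Sod2, −4.60 for Mt1 and −4.79 for Mt2. Adjusted p values in edgeR ranged from 7.11e-08 for Gclc to 0.00516 for Mt2. OE raised and KO removed Cebpa, so opposite effects on a gene also give such a difference. Where KO and WT were nearly level, as for Gclc, it mostly repeats the comparison of OE with GFP. These 9 genes share the same libraries and are not independent of each other, and the experiments differ in more than Cebpa.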

How the results depend on the processing

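In OE against GFP and in the difference of effects, all members kept their direction and call under every alternative run. In KO against WT, 0 of 9 members passed in edgeR, beside 1 in the fit of all 12 libraries (Hmox1, adjusted p = 0.0390) and 0 to 2 when 1 library was left out, with the 2 reached without the third KO library. Leaving out 1 library gave Txnrd1 log2 fold changes of −0.031 to 0.177 and Srxn1 −0.193 to 0.028, none of which passed, with the sign turned for Txnrd1 without the second KO library and for Srxn1 without the third. In GFP against WT, Gclm was 0.256 or 0.258 in limma on the TPM scales, against −1.74 in edgeR, and Mt2 passed with library totals, with TPM and without the third WT library. Over all genes, KO against WT gave 203 calls in edgeR, 623 in DESeq2, 324 with no filter, 91 under the stricter minimum, 112 or 103 by limma with a TPM pseudocount of 1 or 0.1, 1205 in the fit of all 12 libraries, and 42 to 396 with 1 library left out. Of these calls, 40.4% were higher in edgeR, and 32 of the 112 in limma.

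Replicate numbers showed no clear pairing of the libraries, by correlation (r) of their deviations from the group means. For KO and WT, r was −0.393 to 0.022 between same-numbered libraries and −0.296 to 0.28 between differently numbered ones. For OE and GFP it was −0.084 to 0.043 and −0.088 to 0.113, in the same order. For GFP and WT it was 0.026 to 0.102 and −0.071 to 0.033. With 3 libraries per group, these values cannot decide whether replicate numbers pair the libraries. With the number as a replicate block, 0 of 9 members passed in KO against WT, beside 0.734% of all genes (87 calls), all 10 in OE against GFP, beside 86.1%, and all 10 in GFP against WT, beside 80.8%, where Mt2 passed (1.24, edgeR, adjusted p = 0.0213). The 3 libraries per group, and a coefficient of variation of 20.4% in KO and WT, limit what KO against WT could detect.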

Other observations

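Further stress programs were listed beside the 10 genes. Their counts in OE against GFP stand beside 43.9% of all genes higher and 42.7% lower. Of 13 ATF4 targets tested, 4 rose and 9 fell in OE against GFP in edgeR. Chac1, a glutathione-degrading cyclotransferase, averaged 186 ± 0.831 CPM in OE and 38.5 ± 2.86 CPM in GFP, whereas Phgdh, the first enzyme of serine synthesis, averaged 41.2 ± 1.36 CPM in OE and 133 ± 2.26 CPM in GFP (SD, n = 3 each). In GFP against WT 10 of 13 passed as higher and 1 as lower, beside 45.0% and 38.4% of all genes, with a median log2 fold change of 2.98. In KO against WT 1 of 10 passed, beside 1.71% of all genes, Mthfd2, a mitochondrial folate enzyme, at 5.75 ± 1.43 CPM in KO and 2.10 ± 0.354 CPM in WT (edgeR, adjusted p = 0.0378).

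Of 11 genes of the glucocorticoid response, which also reaches the metallothioneins, 9 fell and 2 rose in OE against GFP. Fkbp5, a glucocorticoid receptor cochaperone, averaged 68.5 ± 2.14 CPM in OE and 212 ± 4.56 CPM in GFP. In KO against WT 1 fell, Hsd11b1, which regenerates active glucocorticoid, at 63.2 ± 5.10 CPM in KO and 387 ± 24.5 CPM in WT (log2 fold change −2.61 ± 0.11, edgeR, adjusted p = 0.000397). Of 9 heat shock genes, 4 rose and 4 fell in OE against GFP and none passed in KO against WT, where Hspb1 had the lowest p (−1.89 ± 0.45, edgeR, adjusted p = 0.117). Hspb1, a small heat shock protein, averaged 71.5 ± 0.917 CPM in OE and 383 ± 9.36 CPM in GFP, and Bag3, a cochaperone, averaged 299 ± 4.80 CPM in OE and 113 ± 2.81 CPM in GFP.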
